A study of Mus musculus with 23 samples.

Results

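Interleukin-6 (IL-6) receptor signalling and the acute phase response were followed through 9 genes in the muscles of flown and ground mice: *Lcn2*, *Lrg1*, *Il6ra*, *Il6st*, *Stat3*, *Socs3*, *Serpina3n*, *Osmr* and *Bcl3*. They were taken as every probe set whose platform annotation names exactly 1 of these genes, which gave 17 of the 22626 probe sets on the array. The gene list was selected on measured values, mainly those of flown and ground mice in *longissimus dorsi*, so the flown against ground values in that muscle are given as a description with no test.

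Male mice, C57BL/N6 in the study's methods and C57/BL6 in the sample labels, were 19 to 20 weeks old. BF mice were flown for 30 days on the BION-M1 biosatellite, and were sampled 12 to 14 hours after landing. FC mice stayed in the animal facility, and BG mice were kept for 30 days on the ground in the habitat of the biosatellite. RNA of *longissimus dorsi*, a back muscle, came from 5 BF, 5 FC and 5 BG mice, and RNA of the tongue from 3 BF, 2 FC and 3 BG mice, with 1 Affymetrix array per tissue sample, numbered here by the replicate number of its label. No genotype other than the strain was named, and the sources do not state if a mouse gave both muscles. BF mice differed from BG mice in flight, launch and landing, which cannot be told apart here.

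IL-6 binds its receptor IL6RA, and the pair recruits the signal transducer gp130, which *Il6st* encodes. Janus kinases bound to gp130 then phosphorylate STAT3, which enters the nucleus and induces its targets, among them *Socs3*, whose product shuts the receptor off. Oncostatin M uses gp130 together with its own receptor OSMR. In liver and in other tissues the pathway induces acute phase proteins, such as the siderophore-binding lipocalin 2 of *Lcn2*, the leucine-rich glycoprotein of *Lrg1* and the protease inhibitor of *Serpina3n*. BCL3 is a nuclear protein of the I kappa B family that binds NF-kappa B subunits, and is known from mouse muscle disuse.

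The 250 bases before the start of *Lcn2*, *Lrg1* and *Il6ra*, the genes whose levels were higher in flown muscle, and of *Socs3* and *Serpina3n*, whose levels stood apart in single mice, are shown to place the binding motifs of the factors that act at acute phase genes. All 9 genes were found in the RefSeq promoter table (GRCm38.p6), which holds the 300 bases around 32851 gene starts. Each sequence runs 5′ to 3′ on the strand of the gene, and the capitals mark every match, on either strand, to the motifs of STAT factors (TTCNNNGAA), C/EBP factors (TTNNGNAA), NF-kappa B (GGNNTTNCC) and the glucocorticoid receptor (ACANNNTGT):
Lcn2, chr2:32387740-32387989, minus strand: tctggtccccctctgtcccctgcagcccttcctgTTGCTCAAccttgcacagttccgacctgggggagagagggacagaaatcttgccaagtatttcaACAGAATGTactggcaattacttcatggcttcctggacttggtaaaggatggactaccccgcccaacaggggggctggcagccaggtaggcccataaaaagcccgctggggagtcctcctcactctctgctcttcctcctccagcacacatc
Lrg1, chr17:56121947-56122196, minus strand: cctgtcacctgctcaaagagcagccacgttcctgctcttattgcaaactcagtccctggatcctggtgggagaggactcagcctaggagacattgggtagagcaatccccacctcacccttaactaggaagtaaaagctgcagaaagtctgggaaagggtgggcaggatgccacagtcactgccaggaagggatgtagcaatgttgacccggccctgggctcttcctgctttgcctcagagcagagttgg
Il6ra, chr3:89913197-89913446, minus strand: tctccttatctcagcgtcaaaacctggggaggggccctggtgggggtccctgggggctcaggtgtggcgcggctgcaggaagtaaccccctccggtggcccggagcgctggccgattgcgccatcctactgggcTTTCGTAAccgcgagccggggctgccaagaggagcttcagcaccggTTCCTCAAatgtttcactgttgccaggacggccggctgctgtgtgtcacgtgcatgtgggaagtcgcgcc
Socs3, chr11:117969367-117969616, minus strand: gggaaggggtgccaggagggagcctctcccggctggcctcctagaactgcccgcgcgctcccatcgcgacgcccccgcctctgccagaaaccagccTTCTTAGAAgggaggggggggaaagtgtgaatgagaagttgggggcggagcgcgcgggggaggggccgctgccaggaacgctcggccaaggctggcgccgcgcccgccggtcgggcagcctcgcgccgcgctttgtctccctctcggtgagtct
Serpina3n, chr12:104406458-104406707, plus strand: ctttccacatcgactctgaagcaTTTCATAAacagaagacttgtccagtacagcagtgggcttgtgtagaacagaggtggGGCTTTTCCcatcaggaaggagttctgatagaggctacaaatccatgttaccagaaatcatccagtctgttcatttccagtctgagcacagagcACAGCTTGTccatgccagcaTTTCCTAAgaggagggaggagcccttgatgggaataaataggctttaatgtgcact

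The STAT motif was present in the window of *Socs3*, at -154 to -146 from its start, and in no other member, beside 8.3% of all promoters of the table. The window of *Lcn2* held 1 C/EBP match at -216 to -209 and 1 match to the glucocorticoid receptor motif at -152 to -144, beside 40.7% and 6.85% of all promoters with at least 1 such match. *Serpina3n* held 2 C/EBP matches, 1 NF-kappa B match at -170 to -162 and 1 glucocorticoid receptor match at -76 to -68. *Bcl3* held 2 NF-kappa B matches, a motif of 16% of all promoters, while *Lrg1*, *Il6st* and *Osmr* held none of the 4 motifs. A match is a description of these letters in this window and not a bound site.

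Expression is given on the log2 scale of the deposited RMA values, on which 1 unit stands for 2-fold. Levels of different probe sets cannot be compared with each other, because probes differ in affinity. The array medians ranged from 6.53 to 6.61 in tongue and from 6.42 to 6.54 in *longissimus dorsi*. Arrays correlated with those of the same group across probe sets at a mean Pearson r of 0.979 to 0.993 in *longissimus dorsi*, where BG array 5 was lowest and had the largest spread around its group mean (SD 0.356). The muscle labels matched their markers: 8 of 8 oral epithelium genes were higher in tongue than in *longissimus dorsi* of BG and of FC mice, and the mean of 11 muscle fibre genes was 11.3 to 12.3 in tongue and 12.96 to 13.7 in *longissimus dorsi*. In whole tissue, fewer cells of a type and less RNA per cell cannot be told apart. A probe set passed the test in a comparison if its p from limma, adjusted over all 22626 probe sets, was under 0.05.

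*Lcn2* was the member with the widest range, 5.14 to 10.7 over the 23 arrays. In *longissimus dorsi* of the 5 BF mice it was 9.50, 8.54, 10.15, 9.69 and 10.68, against 6.15, 5.40, 5.42, 5.14 and 5.56 in FC mice and 6.09, 5.58, 5.96, 5.73 and 7.86 in BG mice. Every BF array lay above every ground array, and a single BG array, number 5, lay apart from the other ground arrays. The mean was 9.71 ± 0.80 in BF mice and 6.24 ± 0.925 in BG mice (SD, n = 5 each), a difference of 3.47 on the log2 scale or 11.1-fold. This was the largest increase among all probe sets of that contrast. Against FC mice, with 5.53 ± 0.376 (SD, n = 5), the difference was 4.18 or 18.1-fold. Without BG array 5 the difference from BG mice was 3.87. The BF mice themselves spanned 2.14 on the log2 scale, with the lowest value in array 2 and the highest in array 5.

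*Lrg1*, a secreted glycoprotein of the acute phase, was also highest in flown mice, by a smaller difference. It was 8.57, 8.18, 8.31, 8.87 and 8.92 in *longissimus dorsi* of BF mice, against 8.02, 7.29, 7.32, 7.36 and 7.46 in FC mice and 6.48, 7.30, 7.97, 7.22 and 8.16 in BG mice. The lowest BF array, at 8.18, lay just above the highest BG array, at 8.16, and above the highest FC array, at 8.02. Its mean was higher in BF than in BG mice by 1.14 (2.21-fold) and higher than in FC mice by 1.08 (2.11-fold). As for *Lcn2*, BF array 2 was the lowest and BF array 5 the highest of the flown mice.

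The IL-6 receptor gene *Il6ra* was measured by 2 probe sets, and both were above every ground array in flown *longissimus dorsi*. Probe set 1452416_at was 8.43, 8.38, 8.15, 8.73 and 7.83 in BF mice, against 7.19, 7.30, 7.51, 6.90 and 7.62 in FC mice and 6.47, 6.72, 6.98, 6.33 and 6.995 in BG mice. The difference was 1.60 (3.04-fold) from BG and 0.998 (1.998-fold) from FC mice, so that FC mice lay between. Probe set 1422270_a_at ranged from 6.22 to 6.65 in BF mice, from 5.62 to 5.96 in FC mice and from 5.74 to 6.11 in BG mice, with differences of 0.46 from BG and 0.62 from FC mice. The order of the ground groups was therefore not the same in both probe sets. Unlike *Lcn2* and *Lrg1*, *Il6ra* 1452416_at was lowest among BF mice in array 5.

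**Figure D1:**
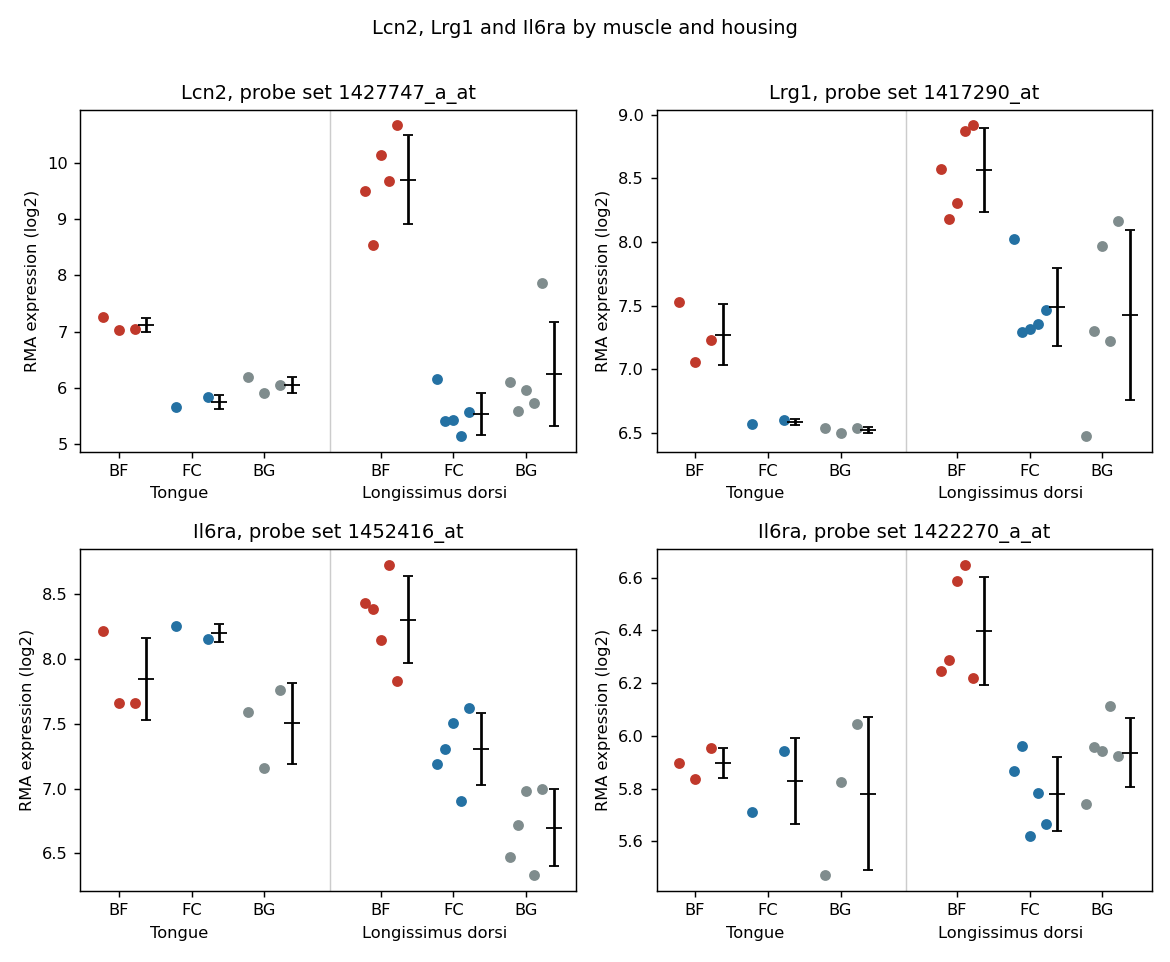
Expression (RMA, log2) of *Lcn2*, *Lrg1* and both *Il6ra* probe sets, with 1 point per array, tongue at the left and *longissimus dorsi* at the right of each panel, and BF, FC and BG mice within each muscle. The bars are the mean ± SD of a group. *Lcn2* in *longissimus dorsi* of BF mice was 8.54 to 10.7, above all 10 ground arrays of that muscle.

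The signal transducer and the transcription factor of the pathway had small differences in the same muscle. *Il6st* was measured by 3 probe sets: 1460295_s_at was 7.30 to 7.74 in BF mice, 6.25 to 7.53 in FC mice and 6.92 to 7.13 in BG mice, with every BF array above every BG array and a difference of 0.40, while the other two differed by 0.19 and 0.16 with overlapping groups. The 3 probe sets of *Stat3* differed between BF and BG mice by -0.09, 0.31 and 0.10, and all overlapped. Without BG array 5 the difference of *Stat3* 1426587_a_at was 0.48, against 0.31 with it. The 2 *Osmr* probe sets differed by -0.22 and -0.03, and *Bcl3* by -0.24.

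*Socs3*, the feedback inhibitor that STAT3 induces, was not higher in flown muscle. Probe set 1416576_at was 5.46, 5.68, 5.39, 5.25 and 6.32 in BF mice, against 5.96, 5.42, 5.80, 5.50 and 7.19 in FC mice and 8.87, 5.75, 5.24, 5.44 and 6.21 in BG mice. BG array 1 stood far above the other BG arrays in all 3 probe sets, at 8.87, 9.48 and 8.9999, and the mean difference of BF from BG mice was -0.68, -0.99 and -0.91 with it and -0.04, -0.33 and -0.31 without it. FC array 5 was the highest FC array in all 3 probe sets, at 7.19, 7.95 and 7.20. The 3 probe sets read 1 gene and are not independent, and 2 of them carry the suffix _x_at, which marks probes that may also bind other transcripts.

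*Serpina3n* had a single high array in each housing group of *longissimus dorsi*. It was 8.65, 6.76, 6.97, 6.83 and 7.19 in BF mice, against 7.91, 5.999, 6.28, 6.04 and 6.10 in FC mice and 6.52, 6.25, 6.35, 6.84 and 9.57 in BG mice. The groups overlapped, with differences of BF mice of 0.18 from BG and 0.82 from FC mice. BF array 1, FC array 1 and BG array 5 were the high ones, and the SD within groups was 0.783 in BF, 0.817 in FC and 1.39 in BG mice.

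**Figure D2:**
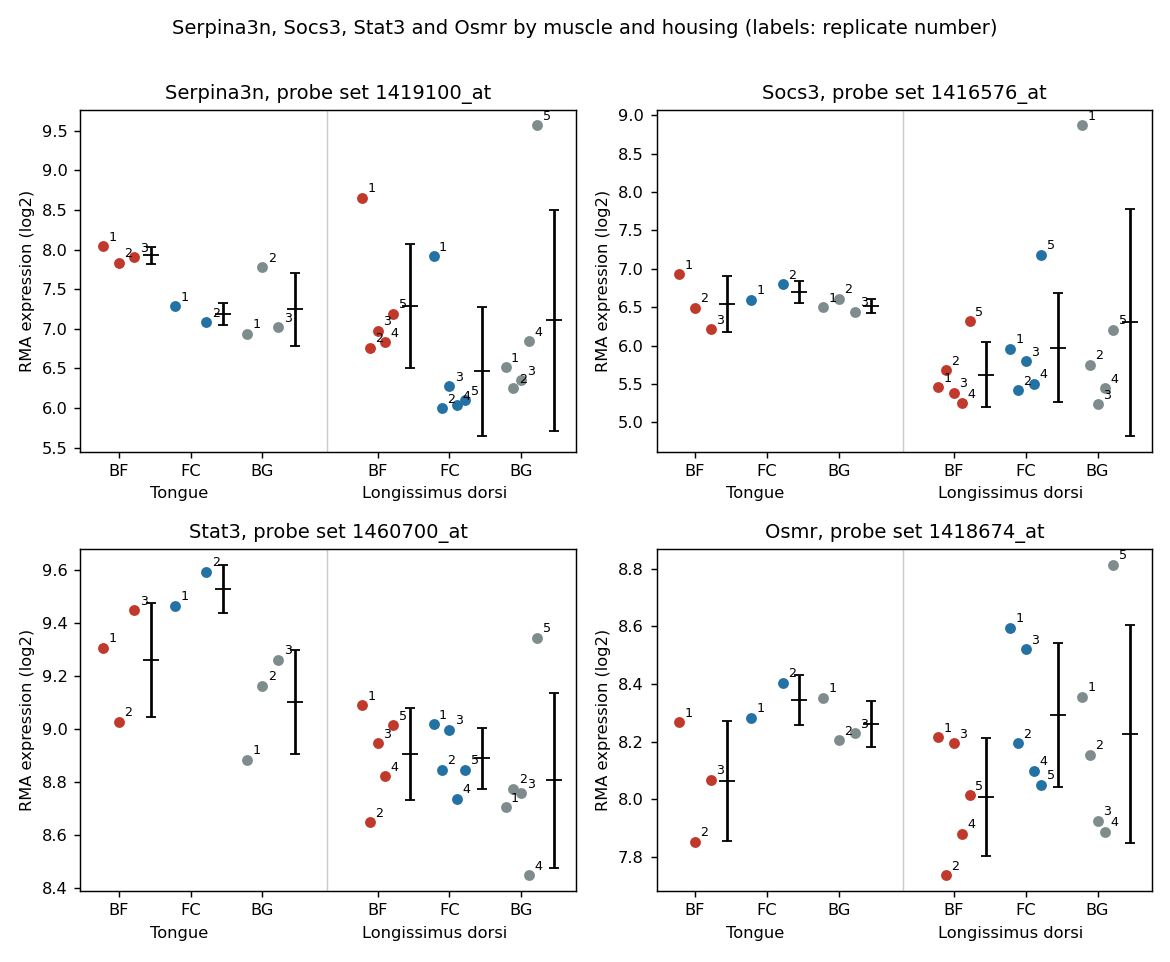
Expression (RMA, log2) of *Serpina3n*, *Socs3* 1416576_at, *Stat3* 1460700_at and *Osmr* 1418674_at, with 1 point per array and its replicate number, in tongue at the left and *longissimus dorsi* at the right. The bars are the mean ± SD of a group. *Serpina3n* was highest in BF array 1 (8.65), FC array 1 (7.91) and BG array 5 (9.57) of *longissimus dorsi*, and *Socs3* in BG array 1 (8.87).

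Of the 17 probe sets, 4 had an adjusted p under 0.05 for BF against BG mice in *longissimus dorsi* (*Lcn2*, *Lrg1* and both of *Il6ra*), beside 10.2% of all probe sets, and 4 for BF against FC mice, beside 3.66%. All BF arrays lay above all BG arrays for 5 members, beside 4.27% of all probe sets, and above all FC arrays for 4, beside 2.38%. These counts describe the values by which the genes were chosen, or share the BF arrays with them, and nothing is read from them.

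Cell type markers were measured beside these values. The mean of 14 macrophage genes was 6.47 to 7.87 on BF arrays, 6.73 to 7.56 on FC arrays and 7.11 to 9.27 on BG arrays of *longissimus dorsi*, with 9.27 on BG array 5 and at most 7.63 on the other BG arrays. BG array 5 was also the highest of the 15 arrays for 13 neutrophil genes, at 5.63, against 4.92 to 5.33 on the others. The neutrophil mean of BF mice, 5.05 to 5.26, did not lie above that of FC mice, 4.92 to 5.33, or BG mice, 5.23 to 5.63, and none of the 13 neutrophil genes passed in BF against BG or BF against FC mice. The neutrophil and macrophage lists share *Itgam*. The part of these cells in the high *Lcn2*, *Serpina3n*, *Osmr* and *Stat3* values of BG array 5 was not tested. The mean of 6 adipocyte genes was highest on BF array 1, at 11.75, among BF arrays (9.46 to 11.75) and on FC array 1, at 10.88, among FC arrays (8.77 to 10.88), the same arrays on which *Serpina3n* was high. On BG array 5 it was 10.52, beside 10.53 on BG array 3. The macrophage mean was the highest of its group on all 3 arrays with high *Serpina3n*, with 7.87 on BF array 1, 7.56 on FC array 1 and 9.27 on BG array 5. So was the mean of the fibroblast genes, with 10.34, 10.73 and 10.66. On BF array 2, where *Lcn2* and *Lrg1* were the lowest of the flown mice, both means were the lowest of the BF arrays, at 6.47 and 8.81. On BF array 5, where both genes were highest, these means were 7.37 and 9.99, below 7.87 and 10.34 on BF array 1. The mean of the endothelial genes was the lowest of the BF arrays on array 2, at 7.37, and the highest on array 5, at 7.80. The part of these cells in the values of *Serpina3n*, *Lcn2* and *Lrg1* was not tested. Of 10 endothelial genes, *Cdh5* and *Tie1* were higher in BF than in BG mice by 0.46 and 0.60, and 8 did not pass. The other *Cdh5* probe set differed by 0.22. Of 8 fibroblast genes, *Fap* was lower (-0.55) and 7 did not pass. The medians of the 2 lists in BF against BG mice were 0.11 and -0.32, and 10.2% of all probe sets passed. Against FC mice 1 endothelial gene passed, *Cldn5*, higher in BF mice by 1.04, beside 3.66% of all probe sets.

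The FC against BG comparison in *longissimus dorsi* asks how the members differed between the 2 kinds of ground housing. It shares the BG arrays with the contrast on which the genes were chosen. *Il6ra* 1452416_at was higher in FC mice, with 7.30 ± 0.28 against 6.70 ± 0.297 in BG mice (SD, n = 5 each), a difference of 0.60 (standard error 0.175, adjusted p = 0.0336 by limma) and 5 of 5 FC arrays above the BG mean. *Bcl3* was lower in FC mice, with 4.52, 4.84, 4.65, 4.63 and 4.69, against 5.00, 5.07, 4.96, 4.71 and 5.16 in BG mice, a difference of -0.31 (standard error 0.098, adjusted p = 0.0476 by limma). The groups overlapped in both. These 2 of 17 probe sets, or 11.8%, stood beside 8.95% of all probe sets that passed. No member had all FC arrays above all BG arrays, beside 4.19% of all probe sets. The other *Il6ra* probe set differed by -0.16 (adjusted p = 0.412), so the gene did not have 1 direction over its probe sets. *Bcl3* lost the call in 18 of 30 alternatives, 15 of them the omission of 1 array, with adjusted p from 0.0243 to 0.101 over all of them. *Il6ra* lost it in 7 of 31, without moderation and without BG array 1, 2 or 4 or FC array 2, 3 or 5 (adjusted p 0.0149 to 0.0997 over all of them), and its difference stayed between 0.51 and 0.71. Without BG array 5, *Il6st* 1452843_at passed, higher in FC mice by 0.36 (adjusted p = 0.028).

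*Lcn2* was 5.53 ± 0.376 in FC mice and 6.24 ± 0.925 in BG mice (SD, n = 5 each), a difference of -0.71 with a 95% interval of -1.44 to 0.01. It did not pass in limma (adjusted p = 0.214), and the exact two-sided permutation test gave p = 0.103. When BG array 5 was left out the difference was -0.31 (adjusted p = 0.478). *Lrg1* differed by 0.07 (95% interval -0.41 to 0.54), and *Serpina3n* by -0.64 (95% interval -1.67 to 0.39). Of 14 macrophage genes, *Lyz2*, a lysozyme of myeloid cells, and *Ms4a7* were lower in FC than in BG mice, with differences of -1.14 and -1.02 (adjusted p = 0.0196 and 0.038 by limma). The other 12 did not pass, beside 8.95% of all probe sets that passed. The part of such cells in the differences of the members was not tested.

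In tongue *Lcn2* and *Lrg1* were also above every ground array in flown mice, but neither passed the test over all arrays. The genes were chosen with results of these data known, so tongue is not an independent look at them. *Lcn2* was 7.26, 7.04 and 7.04 in BF mice, against 5.66 and 5.83 in FC mice and 6.19, 5.90 and 6.04 in BG mice. The difference was 1.07 (2.10-fold, standard error 0.453) from BG mice, with an adjusted p of 0.255, and 1.37 (2.58-fold, standard error 0.506) from FC mice, with an adjusted p of 0.173, both by limma. With the replicate number as a block within each muscle the difference from BG mice had an adjusted p of 0.111. The exact two-sided permutation test of BF against BG mice gave p = 0.10, the smallest that 3 against 3 arrays allow. *Lrg1* was 7.53, 7.06 and 7.23 in BF mice, against 6.57 and 6.603 in FC mice and 6.54, 6.50 and 6.54 in BG mice. Its differences were 0.75 (adjusted p = 0.218) from BG and 0.69 (adjusted p = 0.309) from FC mice.

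The result of the test depended on the arrays that set the spread. The model takes 1 spread per probe set over both muscles, and the SD of *Lcn2* within groups was 0.126 to 0.143 in tongue and 0.376 to 0.925 in *longissimus dorsi*. With the 8 tongue arrays fitted alone by limma, *Lcn2* passed against BG mice (adjusted p = 0.0075) and against FC mice (adjusted p = 0.00158), and so did *Lrg1* (adjusted p = 0.0474 and 0.0299). *Il6st* 1460295_s_at passed there against FC mice (adjusted p = 0.0135). No share of all probe sets under this fit stands beside these calls. With all muscles but without BG array 5 of *longissimus dorsi*, *Lcn2* in tongue passed against FC mice (adjusted p = 0.0435) and not against BG mice (adjusted p = 0.0965).

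*Il6st* 1421239_at and 1460295_s_at and *Serpina3n* also had every BF array above every BG array in tongue. *Il6st* 1460295_s_at was 6.996, 6.92 and 6.95 in BF mice, against 6.01 and 6.31 in FC mice and 6.35, 6.596 and 6.56 in BG mice, with differences of 0.45 from BG and 0.79 from FC mice (adjusted p = 0.314 and 0.0857). *Il6st* 1421239_at and *Serpina3n* differed from BG mice by 0.36 and 0.68. *Serpina3n* was 8.04, 7.83 and 7.90 in BF mice, against 7.29 and 7.08 in FC mice and 6.94, 7.78 and 7.02 in BG mice. BG array 2 stood above the other two BG arrays, and its SD in tongue was 0.105 to 0.462. *Il6ra* 1452416_at was 8.21, 7.66 and 7.66 in BF mice, against 8.25 and 8.15 in FC mice and 7.59, 7.16 and 7.76 in BG mice, so the flown mice lay between the ground groups rather than above them.

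By limma, none of the 17 members passed in tongue of BF against BG mice, beside 0.826% of all probe sets, or of BF against FC mice, beside 2.24%. At an unadjusted p under 0.05 there were 3 and 4 members, for which no share of all probe sets is given. All BF arrays lay above all BG arrays for 5 members, beside 9.69% of all probe sets, and above all FC arrays for 6, beside 17.6%. All BF arrays lay below all FC arrays for 4 members, *Stat3* 1460700_at, *Socs3* 1455899_x_at and 1456212_x_at and *Osmr* 1418674_at. No share of all probe sets is given for this direction, and nothing is read from it. The FC against BG mice comparison in tongue also passed 0 members, beside 9.45% of all probe sets. Again without a matching share, 3 members had an unadjusted p under 0.05 in that comparison. *Il6ra* 1452416_at was higher in FC than in BG mice by 0.70 there, with an adjusted p of 0.083, and *Stat3* 1460700_at by 0.43 with 0.17. Every BF array lay above every FC and BG array in both muscles for 56 of the 22626 probe sets, and *Lcn2* and *Lrg1* were 2 of these, which is a description, since the *longissimus dorsi* values chose the genes. The mean of the macrophage genes was 7.18 to 7.45 in tongue of BF mice, 7.28 to 7.47 in FC mice and 7.49 to 7.64 in BG mice, and that of the neutrophil genes 5.20 to 5.30, 5.14 to 5.20 and 5.23 to 5.46, so neither was higher in BF than in BG mice. The mean of the endothelial genes was 7.47 to 7.68 in BF, 7.44 to 7.55 in FC and 7.23 to 7.33 in BG mice, with all BF arrays above all BG arrays. The mean of the fibroblast genes was 9.55 to 9.88 in BF, 10.55 to 10.61 in FC and 10.01 to 10.13 in BG mice, with all BF arrays below all ground arrays. Their part in the differences of the members was not tested.

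**Figure D3:**
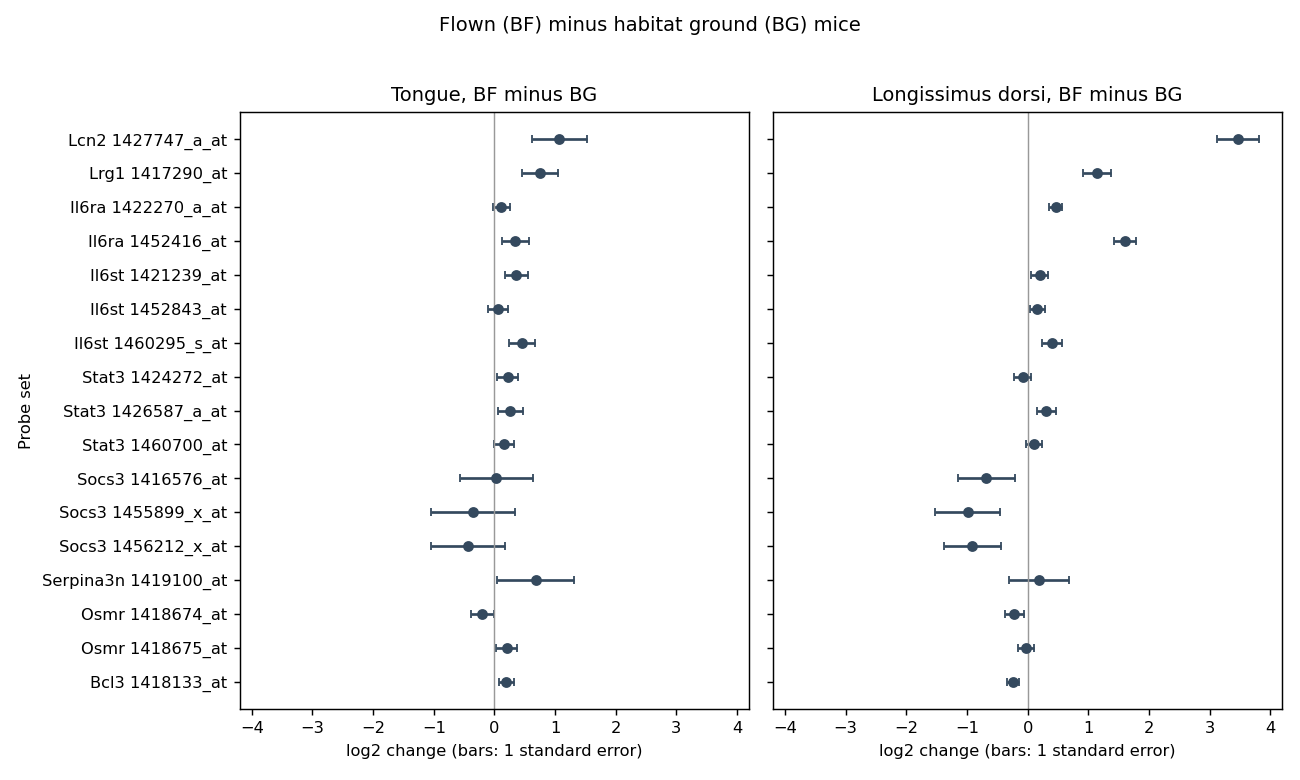
The log2 difference of BF minus BG mice for the 17 probe sets, in tongue at the left and *longissimus dorsi* at the right, with bars of 1 standard error from the model over all arrays. *Lcn2* differed by 1.07 in tongue and by 3.47 in *longissimus dorsi*, and *Il6ra* 1452416_at by 0.34 and 1.60.

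Set side by side, tongue minus *longissimus dorsi* of the BF minus BG difference was -2.399 for *Lcn2*, -1.26 for *Il6ra* 1452416_at and -0.39 for *Lrg1*. These gaps use the contrast on which the genes were chosen and were not tested. The level of *Lcn2* was 7.11 ± 0.129 in flown tongue (SD, n = 3) and 9.71 ± 0.80 in flown *longissimus dorsi* (SD, n = 5). In the ground mice the order of its 4 group means was 5.53 in *longissimus dorsi* of FC mice, 5.75 in tongue of FC mice, 6.05 in tongue of BG mice and 6.24 in *longissimus dorsi* of BG mice, and these neighbours differed by less than the SD of the *longissimus dorsi* groups.

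Between the muscles of ground mice, *Lcn2* did not pass in either housing group, with tongue minus *longissimus dorsi* at 0.21 in FC mice (95% interval -0.75 to 1.18) and -0.20 in BG mice (95% interval -1.04 to 0.64). *Lrg1* was lower in tongue, with differences of -0.90 in FC mice and -0.90 in BG mice (adjusted p = 0.0175 and 0.00676 by limma). *Il6ra* 1452416_at was higher in tongue by 0.90 in FC and by 0.80 in BG mice (adjusted p = 0.00277 and 0.00214 by limma). *Il6st* 1460295_s_at was lower in tongue, with -0.81 in FC and -0.54 in BG mice, and so was *Il6st* 1452843_at in BG mice, with -0.37. Both brighter *Stat3* probe sets were higher in tongue of FC mice, by 0.61 and 0.64, and *Bcl3* by 0.40. These FC calls rest on 2 tongue arrays: without the first, *Lrg1*, *Il6st* 1460295_s_at, *Stat3* 1426587_a_at and *Bcl3* did not pass, and without the second *Lrg1* and both *Stat3* probe sets did not. The *Socs3* probe sets did not pass in BG mice, but all 3 did without BG array 1 of *longissimus dorsi*, higher in tongue by 0.86, 1.15 and 1.11 (adjusted p = 0.0322, 0.0362 and 0.019 by limma). When BG array 5 of that muscle was omitted, *Stat3* 1426587_a_at and 1460700_at passed in BG mice, by 0.36 and 0.43, and *Il6st* 1452843_at did not. So 6 of 17 members (35.3%) passed in FC mice, beside 46.8% of all probe sets, and 4 of 17 (23.5%) in BG mice, beside 54.1%. The median difference over all probe sets was -0.13 in FC and -0.18 in BG mice, beside 0.29 and -0.16 over the members. After each array was centred on its median, *Osmr* 1418675_at passed as well, with -0.48 in FC and -0.44 in BG mice, *Il6st* 1452843_at passed in FC mice with -0.40, and *Bcl3* passed in BG mice with -0.30, while it stayed at 0.29 in FC mice. Oral epithelium genes differed between the muscles by a median of 6.52 in FC and 6.32 in BG mice, and adipocyte genes by -2.09 and -2.37. The part of these cells in the differences of the members was not tested.

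**Figure D4:**
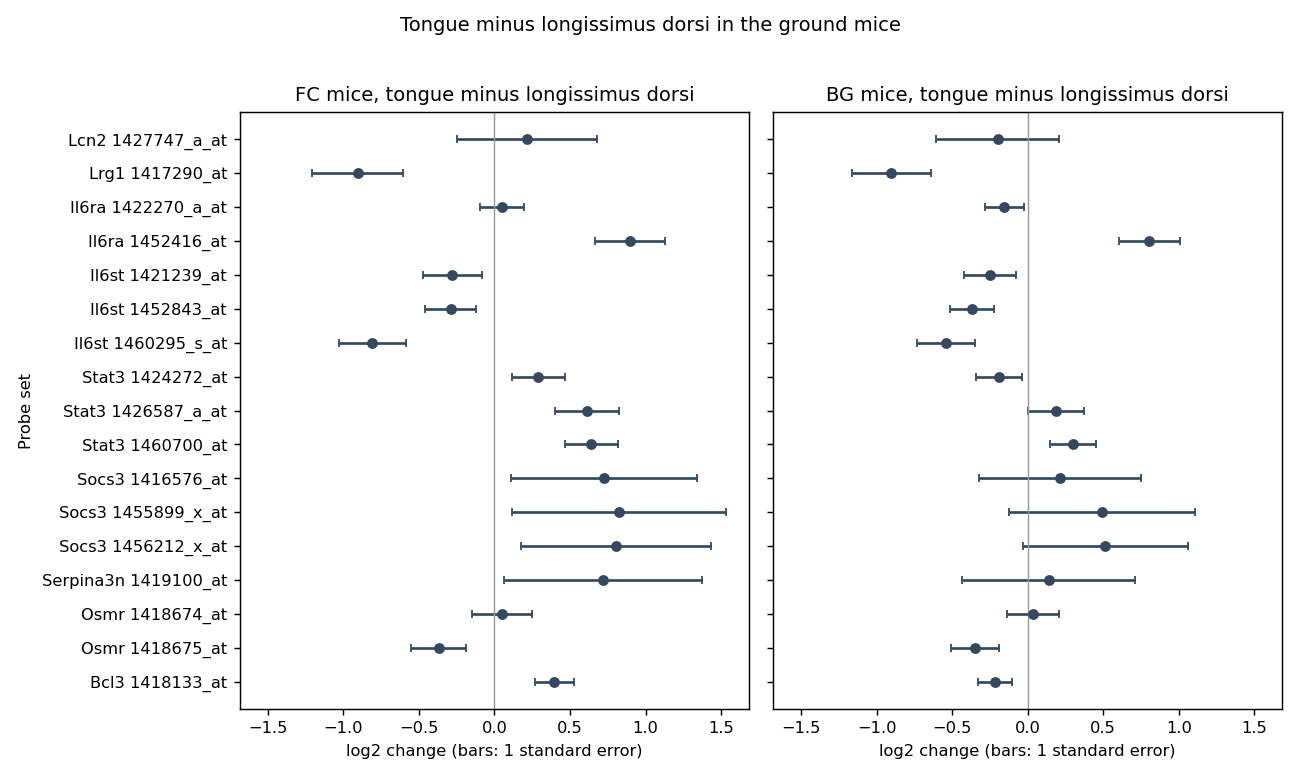
The log2 difference of tongue minus *longissimus dorsi* for the 17 probe sets, in FC mice at the left and BG mice at the right, with bars of 1 standard error. *Lrg1* lay at -0.90 in both, *Il6ra* 1452416_at at 0.90 and 0.80, and the bars of *Socs3* and *Serpina3n* were the widest.

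The housing difference of FC from BG mice was also compared between the muscles by an interaction term. It passed for 0 of 17 members by limma, beside 0.301% of all probe sets. At an unadjusted p under 0.05 there was 1 member, with no share of all probe sets given. That member was *Bcl3*, whose difference of FC from BG mice was 0.30 in tongue and -0.31 in *longissimus dorsi*, a gap of 0.61 (standard error 0.172, adjusted p = 0.16 by limma). It passed with the replicate block and with array weights (adjusted p = 0.0433 and 0.0313).

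**Figure D5:**
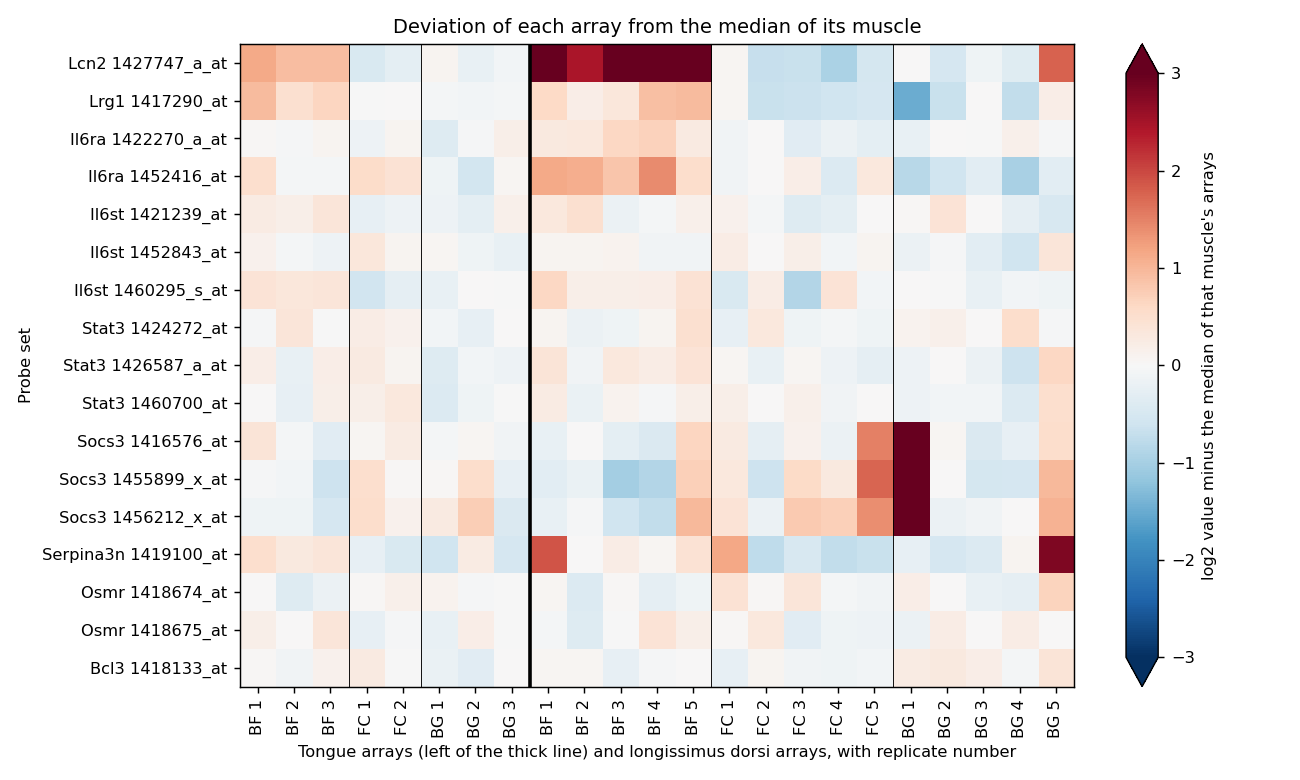
Deviation of each array from the median of its muscle's arrays for the 17 probe sets (red above, blue below, log2 scale, colours end at 3 in each direction). Tongue arrays are left of the thick line and *longissimus dorsi* arrays right of it, each as BF, FC and BG with the replicate number. The flown arrays stand out for *Lcn2*, and BG arrays 1 and 5 of *longissimus dorsi* for *Socs3* and *Serpina3n*.

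The members differed widely in how much they varied within groups. The pooled SD within groups was 0.834 to 0.959 for the 3 *Socs3* probe sets, 0.887 for *Serpina3n*, 0.625 for *Lcn2* and 0.40 for *Lrg1*, against a median of 0.187 over all probe sets. *Bcl3* (0.146) and *Il6ra* 1422270_a_at (0.174) lay below that median. For *Socs3* 1416576_at the 95% interval of the difference between BF and BG mice in tongue was -1.22 to 1.28 in the model over all arrays. That interval includes a change of 2-fold in either direction, but its width comes from a spread taken over both muscles. The SD of this probe set within groups was 0.087 to 0.364 in tongue and 0.422 to 1.48 in *longissimus dorsi*.

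Over the 15 *longissimus dorsi* arrays, the Pearson r of a member with *Lcn2* was 0.846 for *Lrg1*, 0.821 and 0.745 for *Il6ra*, 0.702 for *Stat3* 1426587_a_at and between -0.294 and 0.518 for the rest, which mixes the difference between flown and ground mice with the spread within groups. With the group means removed, over the 23 arrays of both muscles, r with *Lcn2* was 0.596 for *Lrg1*, 0.714 for *Osmr* 1418674_at, 0.71 and 0.705 for *Stat3* 1426587_a_at and 1460700_at and 0.649 for *Serpina3n*, while for *Il6ra* it was -0.01 and 0.05. Without BG array 5 of *longissimus dorsi* these became 0.444, 0.552, 0.513, 0.509 and 0.373. These correlations have no p, since the arrays share groups and 1 array carries much of the spread.

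Among all other named probe sets, *Fbxo9* (r = 0.94), *Ppp1r2* (0.927), *Pdlim5* (0.917) and 2 probe sets of *6430548M08Rik* (0.916 and 0.91) had the pattern most like that of *Lcn2* over the 15 *longissimus dorsi* arrays. With the group means removed, over 23 arrays, they were *Medag* (0.926), *Adcy7* (0.889), *Ccr2* (0.855), *Cyba* (0.853) and *Rgs10* (0.845). Without BG array 5 these were 0.871, 0.803, 0.738, 0.745 and 0.722. By rank (Spearman) over the 23 arrays they were lower, at 0.636, 0.757, 0.634, 0.654 and 0.629. *Ccr2* is a chemokine receptor and *Cyba* an oxidase subunit of myeloid cells. The part of any cell type in these likenesses was not tested.

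The rest of the pathway was followed in 118 further genes, of which 102 were measured, each by its brightest probe set. These lists were drawn up with results of these data known, so their flown against ground values in *longissimus dorsi* are a description too. In that muscle, 12 were higher and 2 lower in BF than in BG mice (13.7%, beside 10.2% of all probe sets), and the median of their differences was -0.06, beside -0.03 over all probe sets. Against FC mice 6 were higher and 2 lower (7.84%, beside 3.66%). In FC against BG mice 4 were higher and 3 lower (6.86%, beside 8.95%). In tongue 0 were higher and 1 lower in BF against BG mice (0.98%, beside 0.826%), 0 and 1 in BF against FC mice (0.98%, beside 2.24%), and 3 and 2 in FC against BG mice (4.9%, beside 9.45%). The flown contrasts in *longissimus dorsi* share the BF arrays, and both BG contrasts share the BG arrays. A share of a gene list counts the brightest probe set of each gene, while the share beside it counts every probe set of the array. The 2 are therefore not like for like.

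The ligands of the family showed few differences. *Il6* itself stayed at 2.92 to 3.94 on all 23 arrays, where the lowest value of the data was 2.24, and at 3.56 to 3.72 in *longissimus dorsi* of BF mice, against 3.43 to 3.68 in FC and 3.52 to 3.94 in BG mice. It did not pass in any comparison of housing. Of 6 measured ligands, *Ctf1* (cardiotrophin-1, another cytokine that acts through gp130) passed in *longissimus dorsi*, higher in BF than in BG mice by 0.53 and in FC than in BG mice by 0.56 (adjusted p = 0.0113 by limma for FC against BG mice). Of 5 other receptors of the family, *Lifr*, the receptor of leukaemia inhibitory factor, was lower in BF than in FC mice (-0.64) by its brightest probe set, while the other two differed by 0.42 and -0.19. Of 9 Janus kinases and other STATs, *Jak2* was lower (-0.56) and *Jak1* higher (0.27) in that comparison. In tongue, *Stat6*, which acts downstream of IL-4, was lower in BF than in FC mice, with a difference of -0.55 (adjusted p = 0.0469 by limma). In tongue of FC against BG mice *Stat6* and *Tyk2*, another Janus kinase, were higher by 0.48 and 0.43, and 1 probe set of *Jak1* was lower (-0.36) while its other two differed by 0.02 and 0.42, so *Jak1* had no single direction.

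Of 20 genes known to be induced by STAT3, 6 were higher and 2 lower in *longissimus dorsi* of BF against BG mice, beside 10.2% of all probe sets, with a median difference of 0.21 beside -0.03 over all probe sets. *Slc39a14*, a zinc and iron transporter, was higher by 1.51, *Cdkn1a*, a cell cycle inhibitor, by 1.23, *Cebpb*, a C/EBP factor of the acute phase, by 0.77 and *Mcl1*, a survival factor, by 0.43. These genes were named because their adjusted p was the smallest of the list. The 2 lower genes are not named, so the values given here cover only genes that were higher. The other probe sets of *Cdkn1a* and *Cebpb* differed by 1.285 and 1.12. The other *Slc39a14* probe set differed by 0.30 and the other *Mcl1* probe sets by 0.13 to 0.30, and none of these passed. Against FC mice *Cdkn1a* was higher by 1.66, *Cebpd* by 1.27 and *Slc39a14* by 0.84. In FC against BG mice the brightest probe sets of *Slc39a14* and *Cebpb* were higher, by 0.67 and 0.45, while the other probe set of each differed by -0.25 and -0.08, so neither gene had 1 direction there. In tongue *Birc5*, a gene of dividing cells, was lower in BF than in BG mice, with a difference of -1.61 (adjusted p = 0.0136 by limma), and the other 19 did not pass.

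Of 26 other acute phase proteins, *Mt2*, a metallothionein that binds zinc, was higher in *longissimus dorsi* of BF mice than of BG mice by 0.73 and than of FC mice by 1.499, and *Mt1* than of FC mice by 0.87 with 1 of its 2 probe sets, the other of which differed by -0.45. *Mt1*, *Mt2* and *Saa4* were lower in FC than in BG mice, with differences of -0.73, -0.76 and -0.31 (adjusted p = 0.0242, 0.0402 and 0.0271 by limma), the other probe set of *Mt1* differing by 0.12. None of the 26 passed in tongue in the comparisons of housing. Of 11 NF-kappa B factors and inhibitors, *Rela* and *Rel*, subunits of NF-kappa B, were higher by 0.39 and 0.40 in BF than in BG mice in *longissimus dorsi*, and *Rela* in tongue of FC than of BG mice by 0.43. Of 16 inhibitors of the pathway, *Ptpn11* and *Pias4* were higher in BF than in BG mice by 0.50 and 0.30, and *Socs2* in FC than in BG mice by 0.55, all in *longissimus dorsi*. *Socs4* was lower in tongue of FC than of BG mice (-0.54) by its brightest probe set, the other two differing by -0.06 and -0.01. None of 9 partners of lipocalin 2 and LRG1, among them the receptors encoded by *Slc22a17* and *Eng*, passed in a comparison of housing.

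Between the muscles of ground mice, 19 of the 102 genes were higher and 28 lower in tongue of FC mice, and 18 higher and 38 lower in tongue of BG mice, beside 46.8% and 54.1% of all probe sets that passed (46.1% and 54.9% of the list), with medians of -0.13 and -0.23 beside -0.13 and -0.18 over all probe sets. *Lifr* was lower in tongue, with -1.24 in FC and -1.196 in BG mice. Of the 9 Janus kinases and other STATs, 2 were higher and 3 lower in tongue of FC mice, and 1 higher and 4 lower in BG mice. *Stat5b*, a STAT of growth hormone signalling, differed by -2.54 in FC and -2.13 in BG mice, and *Jak1* by -1.11 and -0.87. Of the 20 STAT3-induced genes, 8 were higher and 5 lower in tongue of FC mice, and 8 higher and 6 lower in BG mice. Among the higher ones, *Junb*, an AP-1 subunit, differed by 2.30 in FC and 2.33 in BG mice, and *Myc*, a growth regulator, by 1.91 and 1.75. Of the acute phase proteins, *Ptx3*, a pentraxin made in tissues, was lower, with -1.68 in FC and -1.69 in BG mice, and *Mt2* was higher by 2.26 and 1.56. Of 11 NF-kappa B factors and inhibitors, 4 were higher and 2 lower in tongue of FC mice, and 4 higher and 3 lower in BG mice. *Nfkbiz*, an I kappa B protein of the nucleus like BCL3, was higher in tongue by 2.45 in FC and 3.13 in BG mice.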

How the data were processed

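RNA was measured on 23 Affymetrix arrays. The authors deposited log2 values, which they had computed in Partek software by RMA: background was corrected, arrays were quantile normalized and probes were summarised by median polish. The scanned intensities were not used, and no detection call was available. Of the probe sets, 20380 name 1 gene, 691 several and 1555 none. Groups came from the sample labels. All arrays were fitted in limma 3.58.1 (R 4.3.3) as 6 groups of muscle and housing with 17 residual degrees of freedom, with Benjamini-Hochberg adjustment across the 22626 probe sets of each comparison. The p-values measure the spread between these arrays. The number of arrays limits the precision. The procedure was tested on simulated data.

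The members and gene lists were chosen with earlier results of these data known. All member probe sets are reported, with up to 4 genes of a list, by smallest adjusted p, and the 5 probe sets most like *Lcn2*. Lists used the brightest probe set of a gene. Leaving BG array 5 out of the correlations was added after the data were seen. Same-numbered tongue arrays of BF and BG mice deviated from their group means together (r = 0.167, 0.383 and 0.203). For same-numbered arrays of *longissimus dorsi* r ranged from -0.218 to 0.546, and the replicate numbers come from the labels.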

Additional observations from a re-analysis of the deposited data

Results flagged for a closer look

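In the 51 groups of 5 arrays of the members in *longissimus dorsi*, 6 held a single array that lay far from the others (Dixon's ratio above 0.71). Chance flags about 1 in 20 independent groups of normal values, but these groups come from the same arrays and are not independent. No share of all probe sets flagged by this rule is given, and nothing is read from the count. *Lcn2* was 7.86 on BG array 5, with the next array at 6.09. *Lrg1* was 8.02 on FC array 1, with the next at 7.46. *Socs3* 1416576_at was 8.87 on BG array 1, with the next at 6.21. *Serpina3n* was 8.65 on BF array 1, with the next at 7.19, 7.91 on FC array 1, with the next at 6.28, and 9.57 on BG array 5, with the next at 6.84. The 6 values came from 4 arrays.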

How the results depend on the processing

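Direction was followed only for the member differences that passed in the model over all arrays, outside the flown contrasts of *longissimus dorsi*. None of these changed sign. Counts of calls have no direction, and members that did not pass were not followed in this way. The counts of calls below have no share of all probe sets under the same setting beside them. In FC against BG mice of *longissimus dorsi*, 2 members passed, against 1 with each muscle fitted alone, without moderation, with trend and robust moderation, with brighter probe sets only or with quantile normalization within each muscle, 0 with the added limit of 2-fold, and 0 to 2 when each array was left out. In tongue, BF against BG mice passed 2 with each muscle fitted alone, against 0. BF against FC mice passed 3 with each muscle fitted alone and 2 with array weights, against 0, and 0 to 1 when an array was left out (1 without BG array 5 or FC array 3 of *longissimus dorsi*). FC against BG mice passed 2 with array weights, against 0. Between the muscles, BG mice passed 7 with array weights and 0 at more than 2-fold, against 4, and 3 to 7 when an array was left out (7 without BG array 1 of *longissimus dorsi*). FC mice passed 0 at more than 2-fold, against 6, and 2 to 6 when an array was left out (2 and 3 without tongue FC array 1 and 2). In *longissimus dorsi* 2 members were past 2-fold in BF against FC mice, against 4. The replicate block was the replicate number within each muscle for the comparisons of housing, tongue BF and BG mice included, and a random block of housing and number between the muscles. With it the interaction of muscle and housing passed 1 (*Bcl3*), as with array weights, against 0, and the block moved no other count of calls by over 1.5 times. Of the same-numbered arrays of 1 muscle, 11 of 22 pairs correlated above 0.1 (-0.218 to 0.546), and across muscles 2 of 8 (-0.136 to 0.168). The highest were pairs of *longissimus dorsi*, such as BF and FC array 1 (0.546) and FC and BG array 4 (0.45), while other pairs there were negative. The sources do not state what arrays of the same number share, and it was not tested. Some settings changed the arrays used or took the spread from 1 muscle, and the cause of these shifts was not tested. Signal over background was not measured.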

Other observations

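Haptoglobin (*Hp*), an acute phase protein that binds free haemoglobin and is also made by fat cells, was singled out after its values were seen. In *longissimus dorsi* it was 11.14, 8.76, 7.22, 7.37 and 8.71 in BF mice, 10.88, 7.04, 7.56, 7.69 and 8.71 in FC mice and 8.31, 8.68, 8.23, 7.28 and 10.94 in BG mice. The highest array of each group was the array on which *Serpina3n* was highest in that group. In tongue *Hp* was 4.28 to 6.58. *Timp1*, an inhibitor of matrix proteases and a STAT3 target, likewise singled out, was 5.32 to 5.68 in BF mice, 5.24 to 5.99 in FC mice and 6.73, 6.15, 5.61, 5.94 and 8.50 in BG mice of *longissimus dorsi*. It was highest on BG array 5, where *Lcn2* and *Serpina3n* were the highest of the BG mice.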
